A study of Mus musculus with 8 samples.

Results

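The genes described here are the interferon regulatory factors Irf1, Irf2, Irf3, Irf7 and Irf9, the transcription factor Stat2, and the interferon receptor chains Ifnar1, Ifnar2 and Ifngr1. They were taken by gene symbol from the deposited expression table, in which all 9 had a row among 12589 genes in all. The table comes from RNA-seq of the murine spleen stromal line mSSC-YFP, 1 line that expresses a yellow fluorescent protein and was grown in medium with serum. The labels list 4 samples treated with vehicle (DMSO) and 4 treated with BMS493, an inverse agonist that blocks signalling through the retinoic acid (RA) receptors, each for 48 h. The study asked how blocking RA-signaling changes these stromal cells, and they carry no other treatment.

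The value analysed for each gene is the authors' mean log2 normalized expression over all samples, DMSO and BMS493 together. It is a single number per gene with no SD and no n, and values of single samples were not analysed here. The effect of BMS493 on these genes was therefore not tested, and a gene that differed between the groups would have a mean that lies between the group levels. The table gives no depth for single samples, and differences between genes are given without an error.

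Interferons are secreted proteins that alert cells to infection. Type I interferons bind a receptor built from the chains IFNAR1 and IFNAR2, which carry the kinases TYK2 and JAK1. The activated kinases phosphorylate STAT proteins, and STAT2 in a complex with IRF9 binds the interferon-stimulated response element (ISRE) of target genes. Interferon gamma binds IFNGR1 and IFNGR2, and STAT dimers then bind a gamma-activated site (GAS). IRF3 and IRF7 act earlier, downstream of sensors of foreign nucleic acids, and switch on the interferon genes themselves. In many cell types Irf3 is expressed at rest and Irf7 is itself induced by interferon. IRF1 activates and IRF2 mostly restrains genes with such elements. Stromal cells of the spleen are among the many cell types that can answer interferons.

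Promoters of 5 of the 9 genes held a match to an ISRE or a GAS, against 12.9% of all genes with a window, and these matches are shown because the elements are those to which the STAT and IRF proteins of the pathway bind. RefSeq promoter windows on GRCm38.p6 run from 250 bases before to 50 bases after each transcription start. All 9 genes matched a window, with 1 start for 7 genes and 2 starts for Irf1 and for Irf9. Shares of all genes refer to every gene with a window, and shares among the genes of the expression table were not computed. The ISRE was searched as GAAANNGAAA and the GAS as TTCNNNGAA, on both strands, where N is any base. The stretches below are given 5′ to 3′ on the plus strand, which is the strand of each of these genes, with the match in capitals and up to 30 bases on either side.
Irf1, GAS, chr11:53769894-53769962: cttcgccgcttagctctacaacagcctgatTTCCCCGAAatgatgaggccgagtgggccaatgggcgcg
Irf2, ISRE then GAS, chr8:46739495-46739559: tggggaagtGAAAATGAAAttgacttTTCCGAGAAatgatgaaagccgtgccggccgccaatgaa
Stat2, ISRE on the minus strand, chr10:128270248-128270315: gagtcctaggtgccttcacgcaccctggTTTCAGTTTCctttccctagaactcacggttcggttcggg
Ifnar2, GAS, chr16:91372539-91372607: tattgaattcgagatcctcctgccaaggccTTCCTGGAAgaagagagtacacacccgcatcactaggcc
Ifnar1, GAS, chr16:91485180-91485239: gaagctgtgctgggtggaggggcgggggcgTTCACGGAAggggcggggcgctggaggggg

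The ISRE was found in the windows of 2 of the 9 genes, Irf2 and Stat2, against 3.99% of all 27025 genes with a window. In Irf2 it lay at bases -241 to -232 from the start, and in Stat2 at -222 to -213. The GAS was found in 4 of the 9, Irf1, Irf2, Ifnar1 and Ifnar2, against 9.55% of all genes. Its place was -90 to -82 in Irf1, -224 to -216 in Irf2 and -214 to -206 in Ifnar2. In Ifnar1 it crossed the RefSeq start at 91485215, from -5 to 4, and lay wholly upstream of the GENCODE start at 91485238. Irf2 was the 1 gene of the 9 with both elements, and there the pair did not overlap. The search pattern of the GAS reads the same on both strands, though the bases at N need not, whereas the ISRE has a direction. Irf3, Irf7, Irf9 and Ifngr1 held neither set of letters in these windows.

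Sites for the RA receptors were searched in the same windows, since BMS493 acts on these receptors. They bind pairs of sites like AGGTCA in a row, spaced by 5 or by 2 bases, and the main search took these exact letters. Neither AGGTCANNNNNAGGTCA nor AGGTCANNAGGTCA was present in any of the 9 genes, and 3 and 2 of all genes held them. These shares are 0.0111% and 0.0074%, so the absence from 9 genes says nothing particular about them. The single half-site AGGTCA, which is part of both repeats, was found at the second start of Irf9, at -135 to -130 on the minus strand and at -27 to -22 on the plus strand. It was found in 18.1% of all genes. A match is a description of the letters and not of binding, and RA-responsive elements can lie far from a start.

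**Figure D1:**
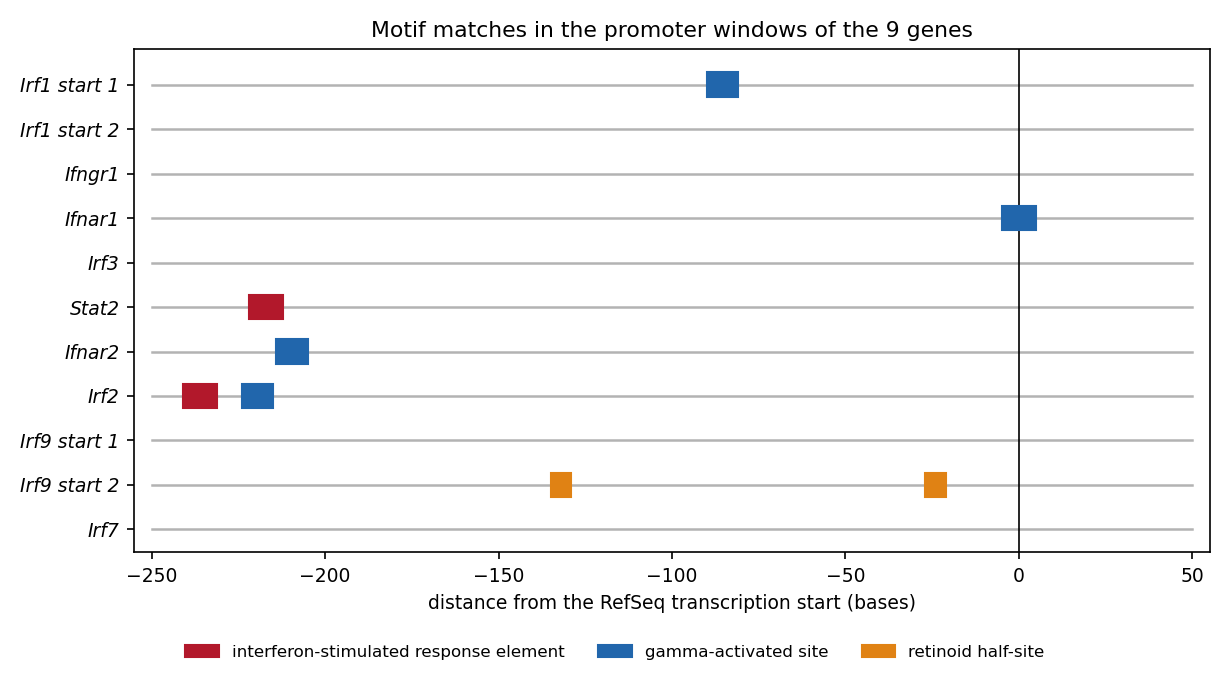
Positions of motif matches in the 11 promoter windows of the 9 genes, with the distance from the RefSeq transcription start in bases on the x axis and 1 line per start. Coloured boxes are matches to the ISRE (Irf2, Stat2), the GAS (Irf1, Irf2, Ifnar1, Ifnar2) and the retinoid half-site (Irf9). The match in Ifnar1 crosses the RefSeq start, and lines without a box had no match to these letters.

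The promoters also differed in CpG content, the number of CG dinucleotides per window. Of the 11 windows, 9 were above the median of 7 per window over all 32851 windows. The CpG content of the genes in the expression table alone was not computed, so this count is not read as particular to the 9 genes. The windows of Irf1 held 32 and 43, at percentiles 91.0 and 97.6 of all windows. Ifnar1 had 26, Stat2 22, Irf2 19, Irf3 and Ifnar2 18 each, and Ifngr1 14. Irf7 was at the median with 7. The starts of Irf9 held 9 and 1.

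Expression levels were first compared with all genes of the table. The median of the mean log2 normalized expression was 4.99, and the 25th and 75th percentiles were 3.33 and 6.25. Ifnar1 had the highest value of the 9 genes, 6.42, followed by Irf1 with 6.15, Ifngr1 with 5.56, Irf3 with 5.42 and Stat2 with 5.19. Irf2 with 4.83, Ifnar2 with 4.66 and Irf9 with 3.95 lay below the median of all genes. Irf7 was far lower than the rest, with 0.88. It ranked 11835 of 12589 genes.

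Longer transcripts yield more reads, so genes were compared with each other per kilobase (kb) of the longest GENCODE M21 transcript. These transcripts ran from 2031 bases for Irf3 to 4397 bases for Stat2. On this scale the median over the 12392 genes with a gene model was 3.28, and the order of the 9 genes became Irf1, Ifngr1, Ifnar1, Irf3, Stat2, Ifnar2, Irf2, Irf9 and Irf7. Of the 9 genes, 4 lay above the median, which is 44.4%, so as a group they sat near the middle of the genes in the table. The highest and the lowest, Irf1 and Irf7, differed by 5.87 on the log2 scale, or 58.4-fold. This ratio was 38.5-fold without a length correction, where Ifnar1 was the highest gene. It was 36.6-fold per kb of all exons joined and 53.5-fold per kb of coding sequence. The joined exons of Irf7 form 1 block of 3776 bases, equal to its gene span. Its longest transcript has 3240 bases, against 1371 of coding sequence. The length that applies to Irf7, and so its level per kb, is therefore uncertain. Neighbours in this order were close in several places. Ifngr1 and Ifnar1 differed by 0.03 and Ifnar1 and Irf3 by 0.06 in log2 level per kb, and Stat2 and Ifnar2 by less than 0.01. Without a spread between samples none of these neighbours can be said to differ. The gap from Irf9 to Irf7 was 2.81, and lay between 2.55 and 3.07 with the other lengths and without a correction. The gap from Irf3 to Stat2 was 1.34 on this scale and 0.23 without a length correction, and per kb of coding sequence Ifngr1, Irf2 and Ifnar2 lay between this pair.

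**Figure D2:**
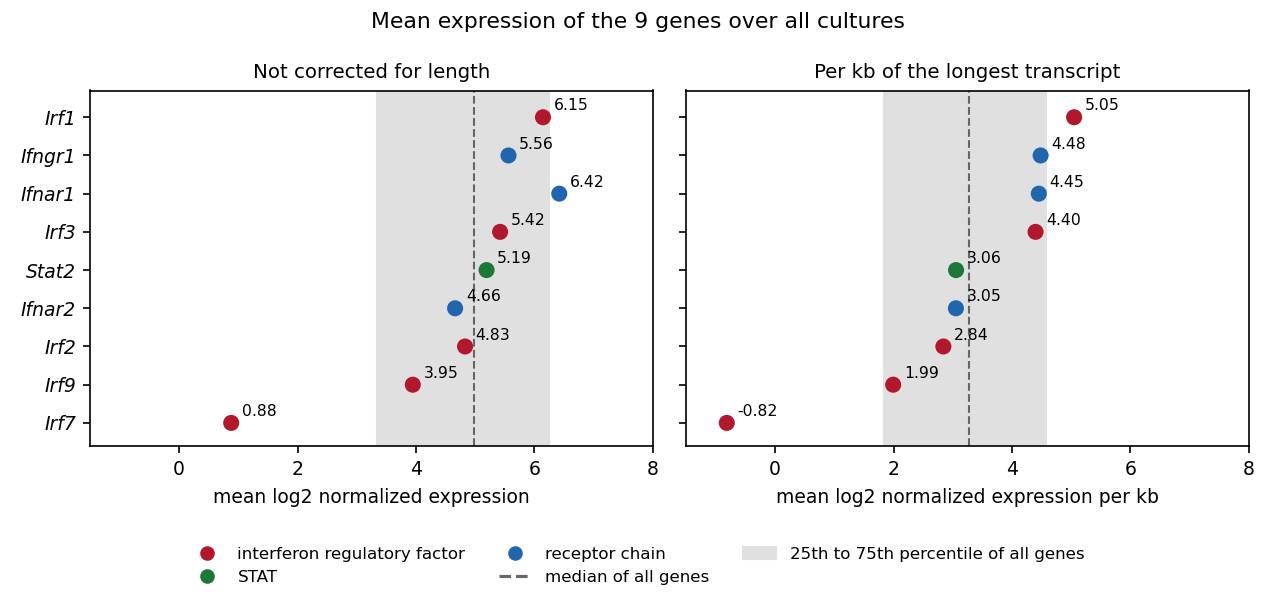
Mean log2 normalized expression over all samples for each of the 9 genes, without correction for length (left) and per kb of the longest transcript (right), 1 point per gene. The dashed line is the median of all genes (4.99 left, 3.28 right) and the grey band runs from the 25th to the 75th percentile of all genes. Irf7 lies well left of the band in both panels, and Irf1 is the 1 gene right of it per kb.

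Among the receptor chains, both parts of the type I receptor were expressed but not at like levels. Ifnar1 lies on chromosome 16 of GRCm38 from 91485238 to 91507441, on the plus strand. Its level was 4.45 per kb on the log2 scale, at percentile 73.1 of all genes. Ifnar2, which encodes the chain that binds interferon with high affinity, lies on the same chromosome and strand from 91372783 to 91405589. Its level was 3.05 per kb, at percentile 45.4. Ifnar1 was 1.40 higher on the log2 scale, or 2.64-fold. The ratio kept its direction with every length tried, from 1.90-fold per kb of all exons joined to 3.39-fold without a correction.

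Ifngr1 encodes the ligand-binding chain of the interferon gamma receptor. It lies on chromosome 10 from 19591949 to 19610229, on the plus strand, and its level was 4.48 per kb, at percentile 73.7. Its partner chain Ifngr2 was higher still, with 5.11 per kb at percentile 82.9, a difference of 0.62 on the log2 scale. The ratio of Ifngr2 to Ifngr1 was 1.54-fold per kb of transcript and 3.88-fold per kb of coding sequence, so its size depended on the length used. The receptor for interferon lambda is made of Ifnlr1 and Il10rb. Ifnlr1, which is needed for the response, had 0.93 per kb at percentile 15.4, and the shared chain Il10rb had 3.42 at percentile 52.6.

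Genes of 4 of these 6 receptor chains lie in a cluster, and other genes between them were not searched for. Ifnar2, Il10rb, Ifnar1 and Ifngr2 follow each other on the plus strand of chromosome 16 within 192841 bases. Il10rb begins 574 bases after the end of Ifnar2. Between Il10rb and Ifnar1 are 59403 bases, and between Ifnar1 and Ifngr2 39630 bases. Along the chromosome their levels per kb were 3.05, 3.42, 4.45 and 5.11, so that the 4 genes spanned 2.05 on the log2 scale, from Ifnar2 to Ifngr2.

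The kinases bound to these receptors also differed in level. Jak1, which serves all interferon receptors, had 5.34 per kb at percentile 85.6. Jak2, the partner of IFNGR2, had 3.91 at percentile 62.8. Tyk2, the partner of IFNAR1, had 2.89 at percentile 42.2, 5.46-fold below Jak1. Jak3, which is known mainly from lymphocytes and is not part of interferon receptors, was the lowest with 0.50.

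Stat2, the STAT particular to type I and lambda interferons, lies on chromosome 10 from 128270559 to 128292849, on the plus strand. RefSeq places its start upstream of this GENCODE position, at 128270498. Its level was 3.06 per kb, at percentile 45.4. Irf9, which binds DNA in the complex with STAT2, lies on chromosome 14 from 55603571 to 55610030, on the plus strand. Its level was 1.99 per kb, at percentile 27.0. Stat2 was 1.06 above Irf9 on the log2 scale, and per kb of coding sequence this distance shrank to 0.26. Other STATs were Stat6 with 5.61 per kb, Stat3 with 4.82, Stat5b with 3.31 and Stat5a with 2.10. Stat6 and Stat3, known for responses to interleukin 4 and interleukin 6, were 5.87-fold and 3.40-fold above Stat2. Per kb of coding sequence the ratios were 5.56 and 5.61, so the order of this pair changed with the length used. Stat4 was not analysed here.

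Irf1 had the highest level per kb of the 9 genes. It lies on chromosome 11 from 53770014 to 53778374, on the plus strand, and had 5.05 per kb at percentile 82.1. Its GAS, printed above, lies in the window of the first of its RefSeq starts. Without a length correction Irf1 was second to Ifnar1, by 0.27. Irf2, the related factor that competes for the same elements, lies on chromosome 8 from 46739732 to 46847458, on the plus strand. It had 2.84 per kb at percentile 41.3. Irf1 was 4.62-fold above Irf2 per kb of transcript and 2.64-fold per kb of coding sequence.

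Irf3 and Irf7 are close relatives that both induce interferon genes, and they stood 37.2-fold apart per kb of the longest transcript. Irf3 lies on chromosome 7 from 44997648 to 45002848, on the plus strand, with a level of 4.40 per kb at percentile 72.2. Irf7 lies on the minus strand of the same chromosome from 141262706 to 141266481, with -0.82 per kb at percentile 4.09. The ratio was 23.3-fold without a length correction and 25.4-fold per kb of coding sequence. The uncorrected log2 level of Irf7 was 0.88, near the low end of all genes, where the lowest value was -0.58. An added count before logs is not known and the length of Irf7 is uncertain, so the size of ratios to it is uncertain too. Irf5, a further family member, had 1.21 per kb, 4.08-fold above Irf7, and 2.59-fold per kb of coding sequence. Irf4 and Irf8 were not analysed here.

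Regulators around these genes were read from lists of the pathway. Of the inhibitors of interferon signalling, 14 of 16 had a value, with a median of 3.95 per kb, and 10 of the 14 were above the median of all genes. Among them Socs3, a feedback inhibitor of JAK kinases, had 4.44 per kb. Socs1, the main feedback inhibitor of interferon gamma signalling, had -0.33, near the level of Irf7. The phosphatase gene Ptpn11 was the highest of the list with 5.16 and Ptpn6, its relative of blood cells, the lowest with -1.17. Cish, a further member of the SOCS family, had 0.00. Irf2bp1, Irf2bp2 and Irf2bpl, named for binding IRF2 or for their likeness to such proteins, had 3.45, 4.05 and 5.04. Irf2bp1 was 0.61 above Irf2 per kb of transcript and had a difference of -0.67 from it per kb of coding sequence.

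Upstream of IRF3 and IRF7, 18 of 20 sensors, adaptors and kinases had a value, with a median of 2.99 per kb, and 6 of the 18 were above the median of all genes. Tbk1, the kinase that phosphorylates IRF3, had 4.29 per kb, close to Irf3 itself. The related kinase gene Ikbke had 2.27. Of the sensors of RNA in the cytosol, Ddx58 (RIG-I) had 3.63 and Ifih1 (MDA5) 1.04, whereas their relative Dhx58 had -0.42. The adaptor Mavs had 4.05. For sensing of DNA, the adaptor Tmem173 (STING) had 4.62 and the sensor Mb21d1 (cGAS) 1.27. Tlr3 and Tlr4 had 0.61 and 2.42. None of the 22 interferon genes of the list had a value, and they were not analysed here.

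**Figure D3:**
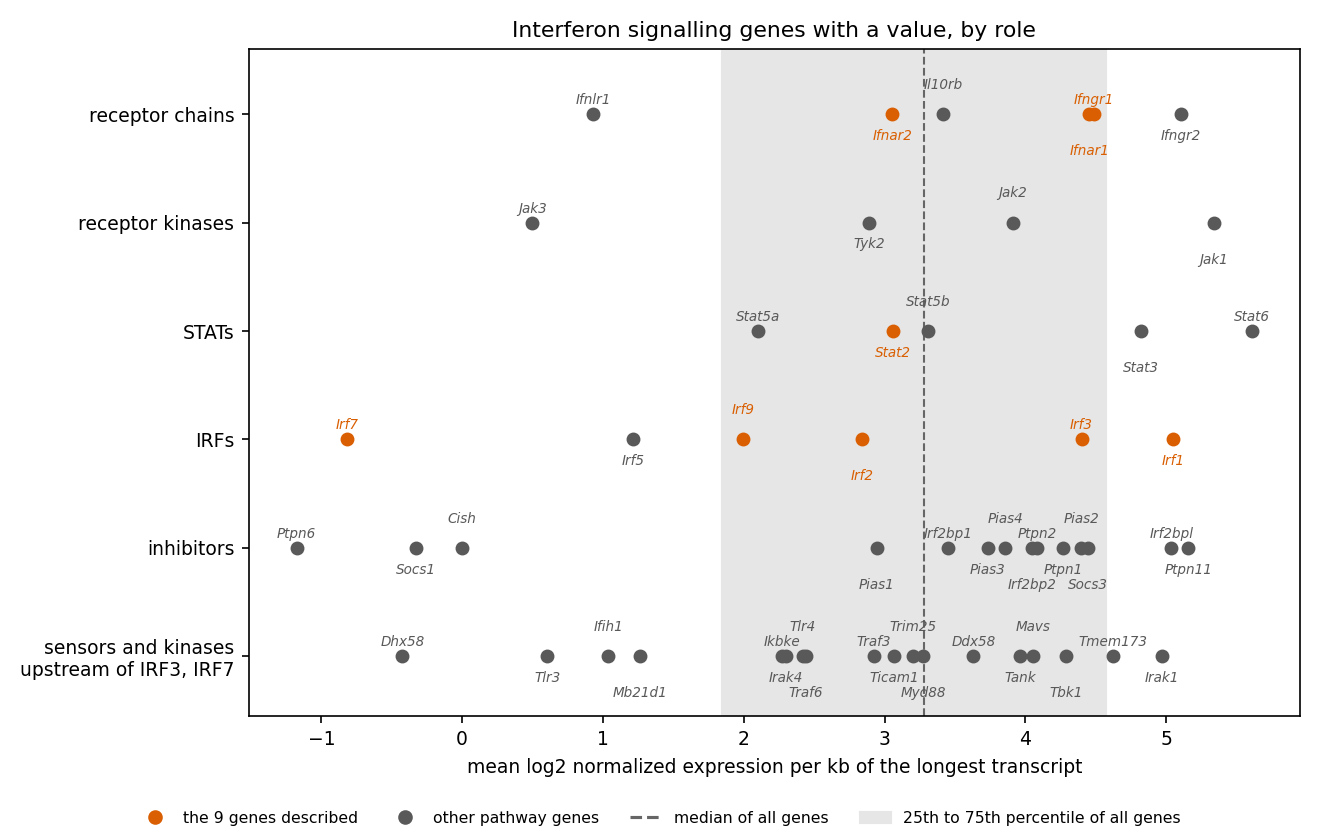
Mean log2 normalized expression per kb of the longest transcript for interferon signalling genes, grouped by role on the y axis, 1 point per gene, with the 9 genes in orange. The dashed line is the median of all genes and the grey band runs from the 25th to the 75th percentile of all genes. Irf7 and Ifnlr1 are the lowest of their groups, and Ifngr2, Jak1, Stat6, Irf1, Ptpn11 and Irak1 the highest of theirs.

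Some exons of 5 of the 9 genes are shared with other genes in GENCODE M21. The share over all genes was not computed, so this count is not read as particular to the 9 genes. Irf1 shares 135 exonic bases with Gm17334, Irf3 shares 88 with Bcl2l12 and Irf7 shares 45 with Phrf1, all on the opposite strand. Irf9 shares 123 bases with Rnf31 on the same strand. Ifnar2 shares 315 bases, 9.46% of its exonic bases, with Gm21970, also on the same strand. The libraries were made with a stranded kit, and the sources used here do not say whether reads were counted by strand, so reads from these stretches cannot be assigned with certainty.

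The label of stromal cells was compared with marker genes. Of 12 stromal markers 11 had a value, and 9 of the 11 lay above the median of all genes per kb. Pdgfra and Fbln1 lay below it, at percentiles 34.6 and 26.9 per kb. Col1a1 had the highest mean log2 normalized expression of the whole table, 13.3, with Col1a2 and Vim at 12.5 and 11.8. None of the 8 B cell markers had a value. Of 8 T cell markers 2 had one on the uncorrected log2 scale, Lck with 0.12 and Thy1, which fibroblasts also express, with 7.72. Of 8 markers of macrophages and other blood cells 1 had one, Cd68 with 1.36. Of 6 endothelial markers 2 had one, Pecam1 with 0.47 and Kdr with 2.83. Epithelial markers had a value for 4 of 6, of which Cdh1 and Krt19 were high, with 8.03 and 7.71, whereas Krt8 and Krt18 had 1.55 and 0.31. The samples come from 1 cell line. In such bulk samples, fewer cells expressing a marker and less RNA per cell cannot be told apart.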

How the data were processed

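RNA-seq libraries were prepared with a stranded mRNA kit from mSSC-YFP cells, 4 samples with DMSO and 4 with BMS493. According to the study's methods, the authors aligned reads to mm10 (GRCm38) with STAR 2.3.0e, counted uniquely mapped reads on Ensembl genes and normalized the counts with a weighted trimmed mean of M-values. The 1 table the authors deposited gives the mean log2 normalized expression per gene over all samples. The sum over genes of 2 raised to this mean was 989369, so the values are close to a log2 CPM scale. A filter on genes and an added count before logs are not given in the sources used here. The table's other 4 columns hold the authors' own comparison (log2 difference between the groups, t, p and adjusted p) and were not used. Decimal commas were converted on reading.

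Symbols were matched to GENCODE M21, 11789 directly and 603 through 1 older symbol in RefSeq. Levels per kb are the mean log2 value minus the log2 of the longest transcript in kb. Percentiles are mid-ranks among all genes with a value. RefSeq promoter windows were searched for motifs, and the search found 1000 of 1000 motifs planted in simulated sequences. Python 3.11.15, numpy 2.4.6, pandas 2.3.3 and matplotlib 3.10.9 were used. The 9 genes and all lists were chosen with earlier results of these data known. Genes named are the 9, the other IRF, STAT, receptor, kinase, ligand and SOCS genes of the lists with a value, and of the remaining lists examples with the highest and lowest; the remaining sensors, adaptors, Irf2-binding proteins and markers named were picked after their values were seen. Some genes of these lists are not reported here. A comparison of protein sequences had been planned and was not made here.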

Additional observations from a re-analysis of the deposited data

How the results depend on the processing

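No paired analysis was possible because no values of single samples were analysed. For the same reason other scalings, filters on counts and leaving out each replicate were not run. The number of the 9 genes above the median of all genes was 4, with 4 after genes whose mean log2 level was under 1, Irf7 among them, were left out, 4 among protein-coding genes, and 5 without a length correction, per kb of coding sequence and per kb of all exons joined, the last chosen after seeing the data. Irf2, Stat2 and Ifnar2, the genes nearest the median, each crossed it under 1 of these 5 alternatives, and the other 6 genes stayed on their side, Irf7 in the 4 alternatives that kept it. Of the 36 pairs of the 9 genes, 33 kept their order without a length correction, 31 per kb of coding sequence and 35 per kb of all exons joined.

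Motif counts followed the window and the letters. With 100 bases before and 50 after the start, the ISRE was found in 0 (1.69% of all genes) and the GAS in 2 (4.55%) of the 9 genes. With 1 mismatch allowed, the ISRE was found in 4 (38.9% of all genes), the GAS in 8 (74.2%) and the retinoid half-site, a search chosen after seeing the data, in 8 (93.7%), which by construction admits far more matches. The repeats of AGGTCA spaced by 5 and by 2 bases were found in 0 of the 9 under both. Their shares of all genes were 0.0037% and 0.0% in the shorter window. With 1 mismatch the shares were 0.27% and 0.29%. Repeats this rare would be missing from almost any 9 genes. Without a spread between samples, differences in level carry no error, and the table gives no depth for single samples.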

Other observations

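In 19 rows of the table the gene symbol is written as a date, such as mar-02, which stands in 2 rows. None of the 9 genes and none of the genes on the pathway lists has a symbol of that form. These rows were kept in the percentiles of the uncorrected level and have no gene model, so they are not part of the levels per kb.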
